A study of Homo sapiens with 12 samples.

Results

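Genomic imprinting leaves a gene active on the copy inherited from one parent and silent on the other, under the control of CpG methylation that is laid down in the egg or the sperm and kept through every later cell division. Imprinted genes lie in clusters that mix protein-coding genes with long noncoding RNAs, many of them act on fetal and placental growth, and tumours often gain or lose their expression. Followed here were 10 such genes: the members of the H19 and IGF2 cluster and of the neighbouring KCNQ1OT1 and CDKN1C cluster on chromosome 11, of the DLK1 and MEG3 cluster on chromosome 14, of the PEG10 and SGCE pair and of MEST on chromosome 7, and PEG3 on chromosome 19. They were taken by symbol from the gene tables, where each gave 1 row, so that 10 of 48114 genes are described. PEG3 stands in a row that it shares with ZIM2, and the table cannot separate the pair. A read count adds up both parental copies, so the values are total RNA of each gene and say nothing of which copy was read.

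The cells were lines from human pancreatic ductal adenocarcinoma. PANC-1 cells carried a control siRNA (siCtrl), an siRNA against QKI (siQKI) or an siRNA against RBFOX2 (siRBFOX2) for 48 h, with 40 nM given for both knockdowns, and HPAF-II cells carried siCtrl for the same 48 h. QKI and RBFOX2 are RNA-binding proteins known as regulators of alternative splicing. Each group had 3 libraries of polyadenylated RNA, labelled as biological replicates, and the study uses PANC-1 as a basal-like and HPAF-II as a classical line, so that each state is represented by 1 line. The knockdowns checked out at the level of their targets: QKI fell from 25533 ± 869 (SD, n = 3) to 5034 ± 412 normalized counts in siQKI cells, and RBFOX2 fell from 15429 ± 76.8 to 2095 ± 352 in siRBFOX2 cells. The siQKI cells also held less RBFOX2, at 12642 ± 130 (limma, adjusted p = 0.0207). Summed markers of duct epithelium stood at 2870 to 2935 rescaled counts (each library set to a total of 1000000) in PANC-1 siCtrl, 2790 to 2966 in siQKI, 2385 to 2539 in siRBFOX2 and 11275 to 12117 in HPAF-II. The islet genes INS, GCG and SST were listed at 0 in all 12 libraries, the 4 acinar markers summed to at most 1.59 and the 3 endothelial markers to at most 0.22. The 5 fibroblast markers summed to 11.7 to 13.4 in PANC-1 siCtrl, 25.2 to 28.7 in siQKI, 15.1 to 22.6 in siRBFOX2 and 19.1 to 23.2 in HPAF-II. DCN was at 0 in all PANC-1 groups, and COL1A2 and LUM were at 0 in PANC-1 siCtrl. Of the 5, 2 were tested in PANC-1, with median log2 fold changes of 1.20 in siQKI and 0.65 in siRBFOX2, against 0.03 and 0.01 over all genes. Of the 3 immune markers, CD3E was at 0 in PANC-1 and PTPRC at 0 in PANC-1 siCtrl, siQKI and HPAF-II, and their sum of 75.8 to 167 was mainly CD68. The part of these markers in the results was not tested, and in bulk RNA fewer cells of a kind and less RNA per cell cannot be told apart.

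H19 and MEG3 made the largest contrast between the lines among the 10 genes, and both are noncoding RNAs whose cluster is ruled by CpG methylation. Their RefSeq promoter windows (GRCh38.p14, from 250 bases before to 50 after the start, read 5′ to 3′ on the strand of the gene) are shown for that reason, with every CpG in capitals. These were the windows at chr11:2001217-2001516 on the minus strand for H19 and chr14:100825858-100826157 on the plus strand for MEG3, the first of its 3 windows.
H19: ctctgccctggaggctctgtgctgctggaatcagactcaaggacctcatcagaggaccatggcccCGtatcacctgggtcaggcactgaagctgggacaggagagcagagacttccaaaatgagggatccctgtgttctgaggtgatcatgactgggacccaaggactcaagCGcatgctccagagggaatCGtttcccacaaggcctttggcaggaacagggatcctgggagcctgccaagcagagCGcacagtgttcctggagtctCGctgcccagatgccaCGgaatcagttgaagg
MEG3: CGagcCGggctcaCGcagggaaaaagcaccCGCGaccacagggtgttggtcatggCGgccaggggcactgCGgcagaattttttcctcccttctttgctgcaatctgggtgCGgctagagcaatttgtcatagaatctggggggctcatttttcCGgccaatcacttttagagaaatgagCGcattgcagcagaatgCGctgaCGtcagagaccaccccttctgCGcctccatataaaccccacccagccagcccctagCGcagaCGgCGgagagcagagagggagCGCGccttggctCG
The H19 window held 6 CpG, an observed over expected ratio of 0.242, and the MEG3 window held 19, a ratio of 0.728, against a median of 14 over all 35116 windows of that length. The windows are promoters, and the control regions of the clusters were not looked up and are not shown. Methylation was not measured in this series. Windows were found for 3 of the 10 genes, H19, MEG3 and MEST.

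H19 and MEST are also hosts of microRNAs, whose mature forms are shown because a change in the host transcript is read here only from its long RNA. The seed, bases 2 to 8, is in capitals. miR-675 lies in an exon of H19 (chr11:1996768-1996822, both arms, minus strand) and miR-335 in an intron of MEST (chr7:130496126-130496183, both arms, plus strand).
miR-675-5p: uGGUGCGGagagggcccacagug
miR-675-3p: cUGUAUGCccucaccgcuca
miR-335-5p: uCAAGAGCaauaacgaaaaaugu
miR-335-3p: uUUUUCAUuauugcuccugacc
No 2 of these 4 share a seed. Polyadenylated libraries do not capture mature microRNAs, and the separate row for MIR335 was listed at 0 in all 12 libraries, so these values do not follow the microRNAs.

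Sites for the 2 proteins that were silenced were looked up in the longest GENCODE 29 basic transcript of each gene, on the RNA strand only, as the letters ACTAAC, a core of the QKI motif, and TGCATG, the RBFOX motif; the 2 words share no position when matched to the same RNA. The sites in the genes that were tested and protein-coding are shown in a stretch of 30 bases of the 3′ UTR, with the motif in capitals. IGF2 held ACTAAC at chr11:2132675-2132680 and chr11:2129422-2129427, CDKN1C held it at chr11:2883559-2883564, and PEG10 held TGCATG at chr7:94666401-94666406 and chr7:94667469-94667474.
IGF2, first site: tcaaaacattaaACTAACccccttcccccc
IGF2, second site: ctcccctgggccACTAACcatcctggcccg
CDKN1C: ttttaaagttatACTAACttatattttcta
PEG10, first site: cagatggactctTGCATGttaagactatgt
PEG10, second site: tgctcttattctTGCATGtttaaacactta
MEG3 RNA held 1 ACTAAC and 7 TGCATG. KCNQ1OT1 RNA, of 91667 bases, held 17 ACTAAC and 28 TGCATG, and only 1 transcript was within 10% of that length. The transcripts of H19, MEST and SGCE held neither word. Among transcripts within 10% of the same length, ACTAAC was present in 40.5% for the length of IGF2 and 15.8% for that of CDKN1C, and TGCATG in 80.8% for that of PEG10 and 95.7% for that of MEG3. For the lengths of H19, MEST and SGCE, ACTAAC was present in 17.5%, 18.4% and 26.5% and TGCATG in 45.6%, 47.9% and 58.9%. A match of letters is a description of the sequence and not a binding site.

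In PANC-1 cells the genes spanned a wide range. Levels of different genes were compared as rescaled counts per kb of exon. In siCtrl cells H19 stood highest at 188.8 per kb, rank 328 of 24004 genes with a length, followed by PEG10 at 47.7, MEST at 7.64, MEG3 at 2.92, SGCE at 2.54, IGF2 at 1.31, CDKN1C at 0.379 and KCNQ1OT1 at 0.0178. The 3 libraries of each of these genes lay apart from those of the next one in the order. DLK1 and PEG3 closed the order near or at 0 and did not separate from each other. The exon lengths counted all annotated isoforms, which came to 18.5 kb for MEG3 and 91.7 kb for KCNQ1OT1 and weigh down the per-kb level of both. The plot of levels by library shows this range on a log axis.

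**Figure D1:**
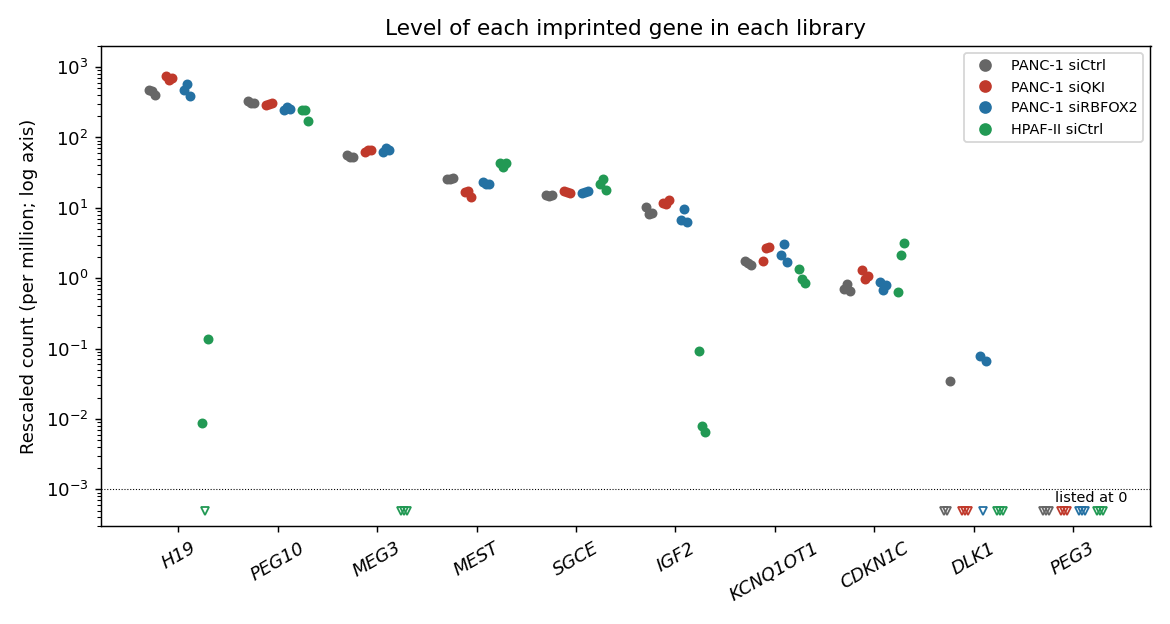
Rescaled counts (library total 1000000, log axis) of the 10 imprinted genes in each of the 12 libraries, by group; open triangles below the dotted line are libraries listed at 0. H19, IGF2 and MEG3 stand far lower in HPAF-II than in every PANC-1 library. PEG10, MEST and SGCE each lie less than 2-fold apart between the siCtrl means of the lines. DLK1 is at or near 0 and PEG3 is at 0 throughout. Heights of different genes are not corrected for length.

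Silencing QKI moved several of these genes, in both directions. H19, MEG3 and, less firmly, IGF2 rose, and MEST and, less firmly, PEG10 fell. The largest changes were a fall of MEST to 0.595 of its siCtrl level and a rise of H19 to 1.54 times. Silencing RBFOX2 raised MEG3 and lowered PEG10, MEST and, less firmly, IGF2, with PEG10 at 0.784 and IGF2 at 0.783 of siCtrl. Of the 10 genes, 8 passed the filter on low values (a mean of 10 normalized counts over the 9 PANC-1 libraries); DLK1 and PEG3 did not. Of the 8, 5 were past the threshold (limma, adjusted p under 0.05) in siQKI against siCtrl, 3 higher and 2 lower, where 33.0% of all 22544 genes tested were (14.9% higher and 18.1% lower). In siRBFOX2 against siCtrl the count was 4 of 8, 1 higher and 3 lower, where 26.5% of all genes were (12.0% higher and 14.5% lower). The median log2 fold change of the 8 was 0.27 against 0.03 over all genes in siQKI, and 0.03 against 0.01 in siRBFOX2. Both comparisons use the same 3 siCtrl libraries, so the knockdowns were also set against each other: 4 of 8 genes differed between them, 3 higher and 1 lower in siQKI, where 21.5% of all genes did (9.93% higher and 11.6% lower). Changes past the threshold of at least 1.5-fold were those of H19 and MEST in siQKI (9.03% of all genes), none of the 8 in siRBFOX2 (5.71%), and those of H19 and IGF2 between the knockdowns (4.33%).

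**Figure D2:**
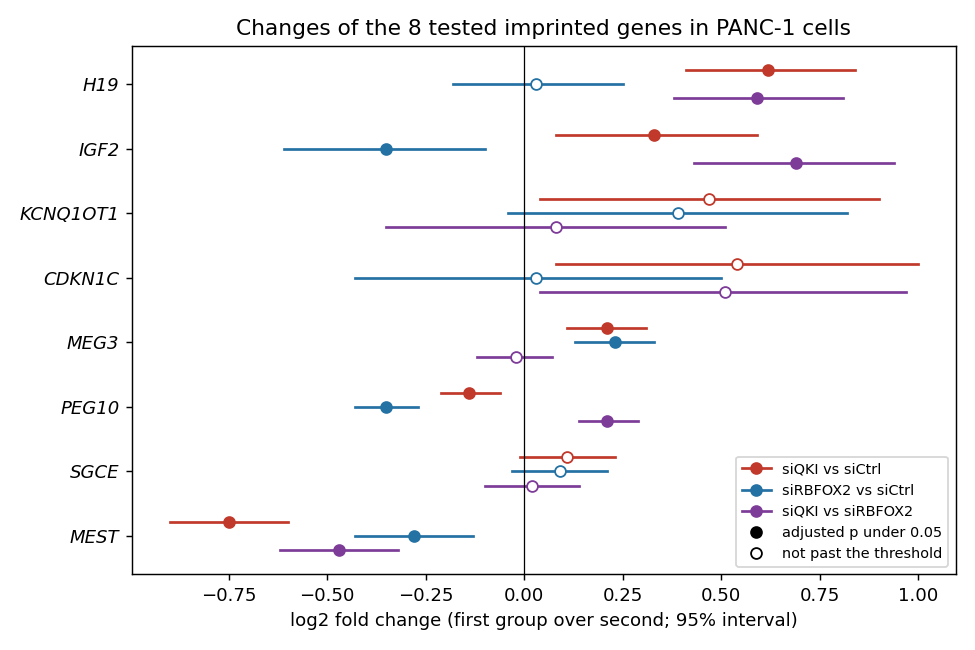
log2 fold changes of the 8 tested genes in PANC-1 cells with 95% intervals from limma, for siQKI against siCtrl, siRBFOX2 against siCtrl and siQKI against siRBFOX2; filled points are past an adjusted p of 0.05. H19 and IGF2 differ between the knockdowns (0.59 and 0.69) and so do PEG10 (0.21) and MEST (-0.47), whereas MEG3 lies at nearly the same place in both.

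H19 is a noncoding RNA read from the maternal copy, and IGF2, read from the paternal copy, encodes a fetal growth factor. They lie 127650 bases apart (H19, FAST DB GSHG0008472, chr11:1995176-2001466; IGF2, GSHG0006960, chr11:2129117-2149566, both on hg38) and are known to compete for shared enhancers under a CTCF-bound control region. H19 stood at 159153.5, 161207 and 137230 normalized counts in the siCtrl libraries and at 253051, 217348 and 233718 in siQKI. In siRBFOX2 it stood at 159185, 184732 and 127908. All 3 siQKI libraries lay above every other PANC-1 library, while those of siRBFOX2 and siCtrl overlapped. Among all genes tested, 44.7% did not overlap in siQKI against siCtrl and 35.2% between the knockdowns. The mean of 234706 ± 17872 in siQKI against 152530 ± 13290 (SD, n = 3 each) gave a log2 fold change of 0.62 (SE 0.10, limma adjusted p = 0.000185). For siRBFOX2 it was 0.03 (95% interval -0.18 to 0.25, adjusted p = 0.861), and the knockdowns differed from each other by 0.59 (SE 0.10, adjusted p = 0.000525).

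IGF2 was far less abundant. It stood at 3533, 2888 and 2927 normalized counts in siCtrl, 3882, 3685.5 and 4180 in siQKI and 2243, 3051 and 2091 in siRBFOX2. The siQKI libraries lay above all others (44.7% of all genes did not overlap with siCtrl and 35.2% with siRBFOX2), and 1 siRBFOX2 library lay within the siCtrl range. The log2 fold change was 0.33 in siQKI (SE 0.12, limma adjusted p = 0.0451) and -0.35 in siRBFOX2 (SE 0.12, adjusted p = 0.0415). Both calls were close to the threshold: 9 and 11 of 17 alternative settings lost them, with adjusted p between 0.00772 and 0.165 for siQKI and between 0.00147 and 0.174 for siRBFOX2. Among them were the fits without siCtrl library 2 or 3 or any 1 siQKI library for siQKI, and without siCtrl library 1 or 3, siQKI library 1 or 2 or siRBFOX2 library 1 or 3 for siRBFOX2. The difference between the knockdowns, 0.69 (SE 0.12, adjusted p = 0.000684), held under all 17. Per library, the ratio of H19 to IGF2 normalized counts was 45.0 to 55.8 in siCtrl, 55.9 to 65.2 in siQKI and 60.6 to 71.0 in siRBFOX2, so that the ratio in both knockdowns lay above that in siCtrl, by a narrow margin for siQKI. The antisense gene IGF2-AS overlaps IGF2, and whether counting used the strand is not given in the sources used here.

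KCNQ1OT1 is a long antisense RNA read from the paternal copy within KCNQ1, and it is known to silence its neighbours on that copy, among them CDKN1C, which encodes the cyclin-dependent kinase inhibitor p57. KCNQ1OT1 (GSHG0006974, chr11:2608328-2699998) stood at 597, 565 and 524 normalized counts in siCtrl, 593, 876 and 901 in siQKI and 711, 987 and 563 in siRBFOX2. The groups overlapped in both comparisons. The log2 fold changes of 0.47 (SE 0.20, limma adjusted p = 0.091) and 0.39 (SE 0.20, adjusted p = 0.188) did not pass the threshold. Without siQKI library 1 the first was 0.66 and passed (adjusted p = 0.0221), and without siRBFOX2 library 2 the second was 0.17. CDKN1C (GSHG0008485, chr11:2883218-2885775) stood at 239, 290 and 229 in siCtrl, 442, 319 and 348 in siQKI and 293, 218 and 267 in siRBFOX2. The siQKI libraries lay above all siCtrl libraries, as 44.7% of all genes tested did not overlap in this comparison. Its log2 fold change of 0.54 (SE 0.22, limma adjusted p = 0.0703) missed the threshold in siQKI (with upper-quartile scaling it was 0.60 and passed, adjusted p = 0.0451), and that of 0.03 in siRBFOX2 had an interval of -0.43 to 0.50. KCNQ1, which encodes a potassium channel and encloses KCNQ1OT1, was low in PANC-1 at 74.3 normalized counts in siCtrl on average.

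MEG3, a maternally expressed noncoding RNA known as a growth suppressor, was the only one of the 8 tested genes past the threshold in the same upward direction in both knockdowns. MEG3 (GSHG0012511, chr14:100826106-100861026) stood at 19180, 18277 and 18402.5 normalized counts in siCtrl, 20481, 22019.5 and 22060 in siQKI and 20852, 22651 and 22157.5 in siRBFOX2. Every knockdown library lay above every siCtrl library (44.7% of all genes did not overlap in siQKI and 37.9% in siRBFOX2), and the knockdowns overlapped each other. The changes were small: a log2 fold change of 0.21 (SE 0.05, limma adjusted p = 0.00253) in siQKI and 0.23 (SE 0.05, adjusted p = 0.00155) in siRBFOX2. Set against each other, the knockdowns differed by -0.02 (95% interval -0.12 to 0.07, adjusted p = 0.781). DLK1 (GSHG0012508, chr14:100726892-100738224), the paternally expressed partner 87881 bases away, encodes a membrane protein related to Notch ligands. It was listed at 0 in 6 of the 9 PANC-1 libraries and at 12.1 in 1 siCtrl library and 26.3 and 22.2 in 2 siRBFOX2 libraries.

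PEG10 and SGCE are paternally expressed neighbours that are read in opposite directions from starts that lie close together; 158 bases separate their deposited gene bounds. PEG10 derives from a retrotransposon and is known to be needed for placental growth, and SGCE encodes epsilon-sarcoglycan. PEG10 (GSHG0039688, chr7:94656325-94669695) stood at 112120, 105982 and 108196.5 normalized counts in siCtrl, 97980.4, 98810 and 100015 in siQKI and 82754, 87150 and 86004 in siRBFOX2. The 3 groups did not overlap, with siCtrl highest and siRBFOX2 lowest. Among all genes tested, 44.7% did not overlap in siQKI against siCtrl, 37.9% in siRBFOX2 against siCtrl and 35.2% between the knockdowns. The log2 fold change was -0.14 in siQKI (SE 0.04, limma adjusted p = 0.00832) and -0.35 in siRBFOX2 (SE 0.04, adjusted p = 4.71e-06), and the knockdowns differed by 0.21 (SE 0.04, adjusted p = 0.000484). With upper-quartile scaling, which moved the median of all genes in siQKI from 0.025 to 0.087, the change in siQKI was -0.07 (adjusted p = 0.147).

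SGCE did not follow its neighbour. SGCE (GSHG0040844, chr7:94584980-94656166) stood at 5098, 5079 and 5324 normalized counts in siCtrl, 5769, 5591 and 5381 in siQKI and 5414, 5387 and 5717 in siRBFOX2. All knockdown libraries lay above all siCtrl libraries (44.7% of all genes did not overlap in siQKI and 37.9% in siRBFOX2), with log2 fold changes of 0.11 (95% interval -0.01 to 0.23, limma adjusted p = 0.149) and 0.09 (-0.03 to 0.21, adjusted p = 0.265) that did not pass the threshold. With upper-quartile scaling the change in siQKI was 0.17 and passed (adjusted p = 0.0225). The ratio of PEG10 to SGCE normalized counts within a library was 20.3 to 21.99 in siCtrl, 16.98 to 18.6 in siQKI and 15.04 to 16.2 in siRBFOX2. This ratio does not depend on how the libraries were scaled, and its 3 groups did not overlap.

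MEST, read from the paternal copy on chromosome 7 (GSHG0039937, chr7:130486175-130506465), encodes an enzyme of the alpha/beta hydrolase fold and is known from growing mesoderm and expanding fat. It stood at 8629, 8901 and 9205 normalized counts in siCtrl, 5576, 5652 and 4720.3 in siQKI and 7754.5, 6961.5 and 7359 in siRBFOX2. The 3 groups did not overlap: siCtrl was highest, siRBFOX2 lay between and siQKI was lowest. Among all genes tested, 44.7% did not overlap in siQKI against siCtrl, 37.9% in siRBFOX2 against siCtrl and 35.2% between the knockdowns. The log2 fold change of -0.75 in siQKI (SE 0.07, limma adjusted p = 8.93e-07) was the largest of the 8 genes in either knockdown. In siRBFOX2 it was -0.28 (SE 0.07, adjusted p = 0.00762), and siQKI was lower than siRBFOX2 by a further 0.47 on the log2 scale (a log2 fold change of -0.47, SE 0.07, adjusted p = 0.000153). The gene shares its 3′ end with COPG2, which encodes a coat protein of transport vesicles and stood at 11906 in siCtrl and 13185 in siQKI, and its 5′ part with the antisense RNA MESTIT1, at 74.7 and 104. PEG3 (GSHG0023246, chr19:56774552-56840726), a paternally expressed zinc finger gene, was listed at 0 in all 12 libraries together with ZIM2.

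**Figure D3:**
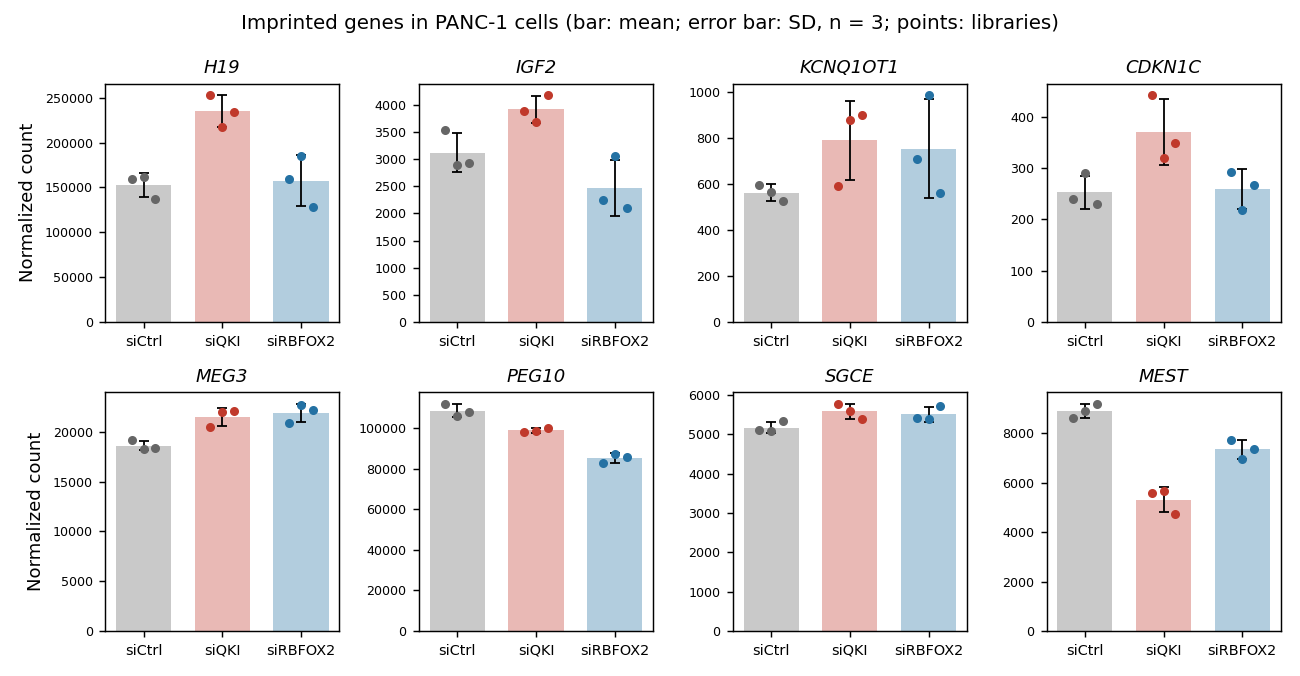
Normalized counts of the 8 tested genes in PANC-1 cells, each panel from 0; bars are means, error bars SD (n = 3) and points the libraries. H19 is highest in siQKI, MEST is lowest there, PEG10 is lowest in siRBFOX2, and MEG3 is higher in both knockdowns than in siCtrl.

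HPAF-II and PANC-1 siCtrl cells were set side by side without a test, because each line's table was normalized apart, and as rescaled counts. H19, MEG3 and IGF2, which PANC-1 read, were almost or wholly missing from HPAF-II. PEG10, MEST, SGCE and KCNQ1OT1 lay less than 2-fold apart. CDKN1C was 2.65-fold higher in HPAF-II on average, with libraries that overlapped, and DLK1 and PEG3 were at or near 0 in both lines. H19 stood at 470, 463 and 398 rescaled counts in PANC-1 and at 0.00882, 0 and 0.136 in HPAF-II. MEG3 stood at 56.6, 52.5 and 53.3 in PANC-1 and was listed at 0 in all 3 HPAF-II libraries. IGF2 stood at 10.4, 8.30 and 8.48 in PANC-1 and at 0.0926, 0.00798 and 0.00646 in HPAF-II. With a pseudocount of 0.01 the log2 ratio of HPAF-II to PANC-1 was -12.90 for H19 and -7.63 for IGF2. It lay between -11.55 and -14.91 for H19 and between -6.08 and -9.04 for IGF2 over the alternatives, and was -14.91 for H19 without HPAF-II library 3 and -9.04 for IGF2 without HPAF-II library 1. A fall of at least 16-fold was seen for 6.33% of the 24673 genes expressed in either line, and 7.63% of the genes read in PANC-1 were listed at 0 in all 3 HPAF-II libraries.

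The paternally expressed genes on chromosome 7 were read in both lines. PEG10 stood at 221 ± 43.7 rescaled counts in HPAF-II and 316 ± 13.5 in PANC-1 (SD, n = 3 each), a log2 ratio of -0.51. MEST stood at 41.4 ± 3.16 and 25.9 ± 0.662, a log2 ratio of 0.68, and SGCE at 21.98 ± 4.02 and 15.02 ± 0.417, a log2 ratio of 0.55. The libraries of the lines did not overlap for any of the 3, as for 63.7% of all genes. The ratio of PEG10 to SGCE was 9.39 to 11.4 in HPAF-II, below its 20.3 to 21.99 in PANC-1 siCtrl. KCNQ1OT1 stood at 1.06 ± 0.271 and 1.63 ± 0.123 (log2 ratio -0.62), while KCNQ1 around it was at 7.66 ± 0.549 in HPAF-II and 0.216 ± 0.109 in PANC-1, a log2 ratio of 5.08 in the other direction. Whether counting used the strand is not given in the sources used here. Whether reads of KCNQ1 entered the KCNQ1OT1 values, in HPAF-II above all, was not tested. CDKN1C varied between the HPAF-II libraries, at 0.631, 2.12 and 3.14, and these overlapped the PANC-1 range of 0.664 to 0.832. Its log2 ratio of 1.41 fell to 0.90 without HPAF-II library 3.

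Of the 8 genes expressed in either line, 4 were at least 2-fold apart, H19, IGF2 and MEG3 lower and CDKN1C higher in HPAF-II, where 52.4% of all genes were (27.2% higher and 25.2% lower). Per kb of exon, the order in HPAF-II began with PEG10 at 33.4, MEST at 12.2, SGCE at 3.71 and CDKN1C at 1.01. H19, KCNQ1OT1 and IGF2 followed at 0.0205, 0.0115 and 0.00514. The libraries of H19 and KCNQ1OT1 overlapped, as did those of KCNQ1OT1 and IGF2, while H19 lay apart from CDKN1C and IGF2 from MEG3.

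Other genes known to be imprinted in at least some human tissues moved both ways in the knockdowns. Of 52 such genes in the tables, 39 were tested in PANC-1: 9 rose and 3 fell in siQKI (30.8%, against 33.0% of all genes), and 11 rose and 3 fell in siRBFOX2 (35.9%, against 26.5%). Their median log2 fold changes were 0.09 and 0.08, against 0.03 and 0.01 over all genes. On chromosome 14 beside MEG3, the noncoding RNA MEG9 stood at 800.3, 902.5 and 764 normalized counts in siCtrl and at 1057, 1230 and 1237 in siQKI. These libraries did not overlap, as for 44.7% of all genes tested. The log2 fold change of MEG9 was 0.51 (limma adjusted p = 0.00381). DIO3, which encodes the deiodinase that inactivates thyroid hormone, rose in both knockdowns, by 0.72 (adjusted p = 0.00571) and 0.81 (adjusted p = 0.0033), and its antisense partner DIO3OS rose in siQKI by 1.03 (adjusted p = 0.000174). For MEG8, from the same cluster, the log2 fold changes of 0.12 (siQKI) and 0.00 (siRBFOX2) did not pass the threshold.

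PHLDA2, the maternally expressed restrainer of placental growth beside CDKN1C, fell in both knockdowns, from 69749 ± 3836 normalized counts to 48383 ± 4428 in siQKI (log2 fold change -0.53, limma adjusted p = 8.49e-06) and 48748 ± 2829 in siRBFOX2 (-0.52, adjusted p = 1.89e-05). CPA4, a carboxypeptidase gene in the MEST region, rose by 0.62 in siQKI (adjusted p = 0.0115) and by 1.77 in siRBFOX2 (adjusted p = 2.9e-06). ZDBF2, a paternally expressed gene of chromosome 2, rose by 1.04 and 0.82 (adjusted p = 0.000798 and 0.00647), and GAB1, which encodes a docking protein of growth factor receptors, rose by 1.15 in siQKI (adjusted p = 0.00235). TFPI2, an inhibitor of serine proteases that lies near PEG10, stood at 357, 312 and 372 in siCtrl and 222, 83.7 and 13.6 in siQKI. The siQKI libraries all lay lower but far apart from each other, and the call (log2 fold change -2.41, adjusted p = 0.0379) was lost in 7 of 17 alternatives, among them the fits without any 1 siCtrl library and without siQKI library 2 or 3 (-1.34 without the latter). NAP1L5 fell by 0.90 in siRBFOX2 (adjusted p = 0.0349), a call that 5 of 17 alternatives lost, among them those without siCtrl library 1 or 3 or siRBFOX2 library 1 (-0.46 without the latter).

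**Figure D4:**
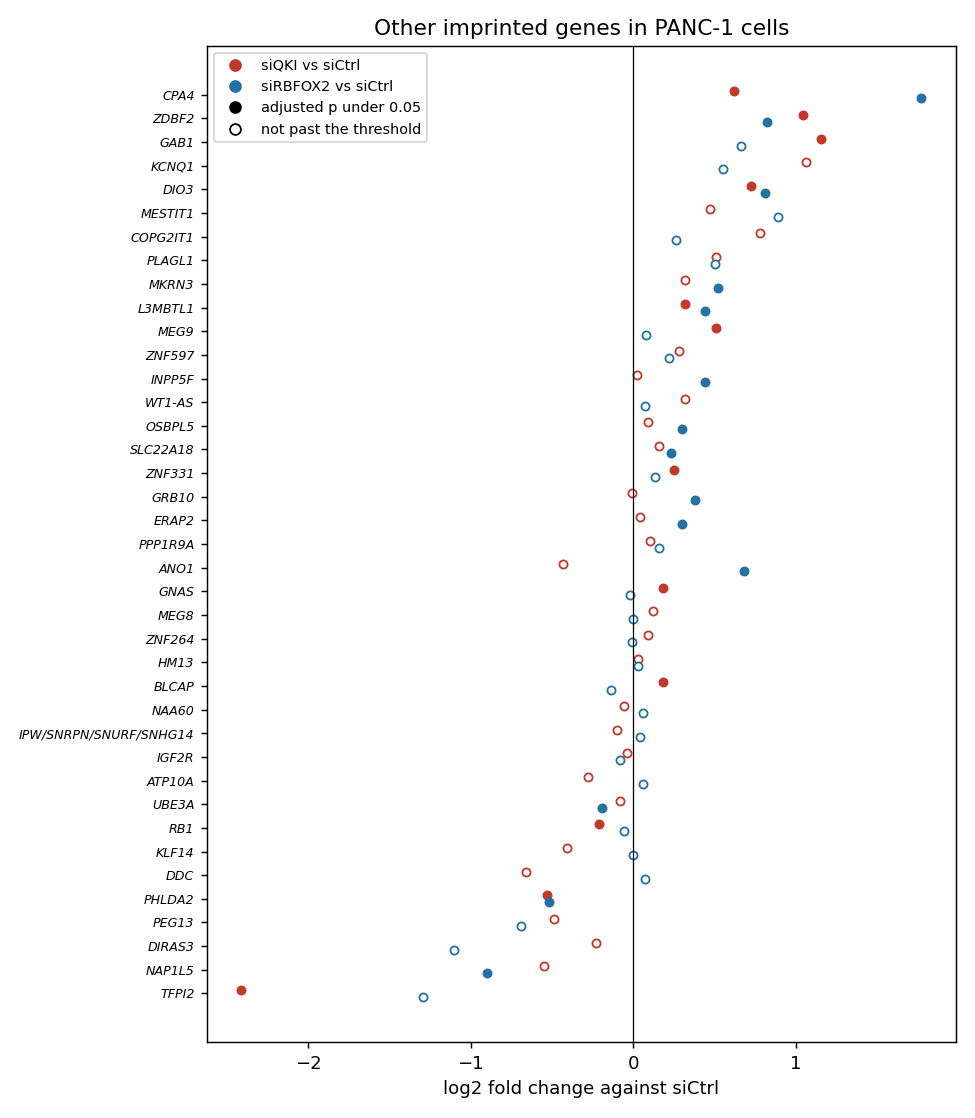
log2 fold changes against siCtrl of the 39 other imprinted genes tested in PANC-1 cells, for siQKI and siRBFOX2; filled points are past an adjusted p of 0.05 (limma). CPA4, ZDBF2 and DIO3 are past it on the higher side and PHLDA2 on the lower side in both; both comparisons use the same siCtrl libraries.

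Between the lines, 44 of these other imprinted genes were expressed in at least 1 line, and 12 were at least 2-fold higher and 17 at least 2-fold lower in HPAF-II (65.9% together, against 52.4% of all genes, of which 27.2% higher and 25.2% lower). Of the 40 that PANC-1 siCtrl read, 9 were listed at 0 in all 3 HPAF-II libraries (22.5%, against 7.63% of all genes). MEG8 was one of them, at 9.96 to 12.7 rescaled counts in PANC-1, and so was DIO3. The neighbour DIO3OS was also at 0 there, and MEG9 was at 0, 0 and 0.0323 in HPAF-II. MEG3, MEG8, MEG9, DIO3 and DIO3OS were thus at or near 0 in HPAF-II, but the neighbour BEGAIN was not. BEGAIN stood at 2.21, 0.905 and 1.75 there, against 24.0 to 24.9 in PANC-1 siCtrl. The protein-coding gene RTL1 was low in both lines, at 0.0872 to 0.199 in HPAF-II and at 0, 0.00861 and 0 in PANC-1 siCtrl. The row that joins SNRPN, SNURF, SNHG14 and IPW, the Prader-Willi region transcripts, was also at 0 in HPAF-II and at 41.7 ± 2.31 in PANC-1. Higher in HPAF-II were DDC, the decarboxylase of dopamine and serotonin synthesis, at 91.5 ± 3.68 against 0.19 ± 0.133, and ANO1, a chloride channel, at 313 ± 16.6 against 1.33 ± 0.182.

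Genes that lie beside the 10, imprinted or not, were counted apart (PPP1R9A and ZNF264 stand in this list and in that of the other imprinted genes). Of 32 tested, 8 rose and 3 fell in siQKI (34.4%, against 33.0% of all genes) and 4 rose and 4 fell in siRBFOX2 (25.0%, against 26.5%). In the H19 and IGF2 region, the mitochondrial ribosomal protein gene MRPL23 fell in both, by 0.23 and 0.21 (limma adjusted p = 0.000702 and 0.00246). Near PEG10, PON2, a lactonase gene, rose in both, by 0.48 and 0.38 (adjusted p = 1.35e-07 and 3.06e-06), and CASD1, whose product adds acetyl groups to sialic acid and which lies next to SGCE, rose by 0.29 in siQKI (adjusted p = 0.00519) and fell by 0.24 in siRBFOX2 (adjusted p = 0.0233, up to 0.0917 and lost without siCtrl library 1 or 3 or siRBFOX2 library 2 or 3). Of 35 expressed in either line, 4 were at least 2-fold higher and 19 at least 2-fold lower in HPAF-II, 65.7% together against 52.4% of all genes, with a median log2 ratio of -1.24 against 0.08. CTSD, MRPL23 and NAP1L4, which lie around H19 and CDKN1C, stood at 201, 77.3 and 91.9 in HPAF-II and 831, 172 and 217 in PANC-1. LSP1, a cytoskeletal gene of white blood cells in the same region, stood at 0.0104 ± 0.00978 and 0.719 ± 0.211, a log2 ratio of -5.16.

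Genes for the proteins that place, keep and read DNA methylation at imprints moved both ways. Of 29 tested, 7 rose and 6 fell in siQKI (44.8%, against 33.0% of all genes) and 5 rose and 7 fell in siRBFOX2 (41.4%, against 26.5%). UHRF1, which brings DNMT1 to newly copied DNA, fell by 0.33 and 0.27 on the log2 scale (limma adjusted p = 1.01e-05 and 8.57e-05). SUZ12, of the Polycomb complex that methylates histone H3, fell by 0.34 and 0.35, and CDCA7, a partner of the remodeller HELLS, rose by 0.66 and 0.52. TET1, which oxidizes methylated cytosine, rose by 0.64 in siQKI (adjusted p = 0.00144). DNMT1 itself fell by 0.18 in siRBFOX2 (adjusted p = 0.00157), and CTCF, the insulator protein of the H19 control region, rose by 0.16 there (adjusted p = 0.0126, and 0.0521 without siCtrl library 1). Between the lines, ZFP57, a zinc finger protein that protects imprints, was listed at 0 in PANC-1 and stood at 4.47 ± 0.38 in HPAF-II, and 8 of 30 genes were at least 2-fold higher and 4 at least 2-fold lower in HPAF-II (40.0% together, against 52.4% of all genes).

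Genes that act with IGF2, its receptors, binding proteins and RNA-binding regulators, moved in both directions. Of 23 tested, 6 rose and 6 fell in siQKI (52.2%, against 33.0% of all genes) and 7 rose and 5 fell in siRBFOX2 (52.2%, against 26.5%). INSR, the insulin receptor, rose by 0.76 and 0.52 (limma adjusted p = 3.16e-05 and 0.00131). IGF2BP2, an RNA-binding protein that binds IGF2 mRNA, fell by 0.52 and 0.61, and IGFBP4, a binding protein that holds IGFs back, by 0.64 and 1.13. IGFBP3, the main IGF carrier of serum, rose by 1.81 in siRBFOX2 (adjusted p = 2.17e-06). HPAF-II lacked several that PANC-1 read: IGF2BP1 was at 0.0189 ± 0.0225 against 15.7 ± 1.25 rescaled counts, IGFBP2 at 0.0723 ± 0.0803 against 46.7 ± 3.7, and LIN28B, a blocker of let-7 microRNAs, was listed at 0 against 5.87 ± 0.17. Others were higher in HPAF-II, among them INSR at 25.6 ± 0.5 against 3.22 ± 0.236 and IGFBP3 at 26.1 ± 3.01 against 4.79 ± 0.48. Of the 23, 6 were at least 2-fold higher and 11 at least 2-fold lower in HPAF-II, where 27.2% and 25.2% of all genes were.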

How the data were processed

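The study sequenced polyadenylated RNA of 12 libraries, and per the labels aligned reads to hg38 with STAR 2.7.5a. The deposited values (a signal unit) are counts per gene after scaling by the authors with DESeq2 size factors, in 1 table of 9 PANC-1 and 1 of 3 HPAF-II libraries, with FAST DB gene identifiers. The methods name no test of gene counts. Every value was a whole multiple of 1 step per library, but 82.1% to 84.8% of low values were multiples of 3 steps, so a step is not a fragment, the depth is unknown and no count test or counting interval was used. Library totals were 292248837 to 376192091 steps for the 9 PANC-1 libraries, with size factors of 0.877 to 1.15, and 226697015 to 309720537 for the 3 of HPAF-II, with size factors of 0.81 to 1.09. Of 48114 genes, 21404 have no symbol.

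limma 3.58.1 (R 4.3.3) was fitted to log2(normalized count + 1) of all 9 PANC-1 libraries for 22544 genes with a mean of at least 10, with a mean-variance trend and Benjamini-Hochberg adjustment (threshold 0.05). Fold changes are on that scale. On simulated data with 200 genes changed 2-fold among 22544, for siQKI against siCtrl, 111 were recovered, all with the right sign, with 9 false calls. The real comparison called 33.0% of genes, many of them changed by less than 2-fold, so these figures do not carry over to its calls. Lines were compared as rescaled counts with a pseudocount of 0.01 and a 2-fold rule, with no test. Replicate numbers did not pair libraries (correlation of same-numbered deviations -0.0325 to 0.0235). Alternatives were other pseudocounts, filters, scalings, fits, thresholds and each library left out. The genes and lists (other imprinted genes, neighbours, imprint maintenance, the IGF2 system, the CDKN1C kinase network and cell type markers) were chosen with earlier results of these data known. Of each list, up to 5 genes per direction among those called, with a mean of at least 50 and libraries that do not overlap, could be named. MEG8, MEG9 beside HPAF-II, DIO3 beside HPAF-II, RTL1, BEGAIN, CTSD, MRPL23 and NAP1L4 between the lines, and the genes that overlap a member were named after their values were seen. Lengths, isoforms and sites came from GENCODE 29, and promoters and microRNAs from RefSeq (GRCh38.p14).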

Additional observations from a re-analysis of the deposited data

Results flagged for a closer look

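Of the genes that overlap one of the 10, 3 lay above every siCtrl library in a knockdown by their values alone. Among all genes tested, 44.7% did not overlap with siCtrl in siQKI and 37.9% in siRBFOX2, in either direction. IGF2-AS was listed at 0 in all siCtrl libraries and at 27.4, 7.85 and 15.7 normalized counts in siQKI, a mean of 16.98. Its mean over the 9 PANC-1 libraries was under 10, so it was not tested and the shares of tested genes do not cover it. MESTIT1, antisense to the 5′ part of MEST, stood at 53.6, 76.0 and 94.6 in siCtrl and at 127, 142 and 139 in siRBFOX2, a mean of 136.2 (log2 fold change 0.89, limma adjusted p = 0.0866). COPG2, which meets the 3′ end of MEST, stood at 11037, 12413 and 12268 in siCtrl and at 12422, 13209 and 13925 in siQKI, a mean of 13185.1 (log2 fold change 0.15, limma adjusted p = 0.0793), so that the lowest siQKI library was only just above the highest siCtrl library. Whether reads were shared between these genes and IGF2 or MEST was not tested.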

How the results depend on the processing

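The calls of H19, MEG3 and MEST in siQKI, of MEG3 and PEG10 in siRBFOX2, and of the 4 genes that differed between the knockdowns kept their direction and their side of the threshold under all 17 alternatives; MEST in siRBFOX2 was lost only without the mean-variance trend (adjusted p = 0.0583) and PEG10 in siQKI without the trend and with upper-quartile scaling. Without the trend, IGF2 also lost its call in both knockdowns. When a change of at least 1.5-fold was also asked for, 2, 0 and 2 of the 8 remained in siQKI, siRBFOX2 and siQKI against siRBFOX2, and 2035, 1288 and 977 of all genes. With an adjusted p under 0.01, 3854 of all genes passed in siRBFOX2 and 3105 between the knockdowns. Of the 8, MEG3, PEG10 and MEST passed it in siRBFOX2, and H19, IGF2, PEG10 and MEST between the knockdowns. Leaving out 1 library at a time gave 4 to 5 of the 8 genes in siQKI, 3 to 4 in siRBFOX2 and 4 to 4 between the knockdowns. The same fits gave 6217 to 7674, 4862 to 5956 and 3903 to 4793 of all genes. Between the lines, CDKN1C was less than 2-fold apart without HPAF-II library 3. With the replicate number as a block, IGF2 was lost in both knockdowns (limma, adjusted p = 0.0571 and 0.0534), and the other calls among the 8 were kept. Only 1 of 9 libraries correlated best with its own number. Values near 0 changed sign: H19 in siRBFOX2 was -0.04 without siCtrl library 3 and -0.09 without siRBFOX2 library 2 (leave-one-out range -0.09 to 0.17), and CDKN1C there was -0.00, -0.03 and -0.06 without siCtrl library 1, siCtrl library 3 and siRBFOX2 library 1 (range -0.06 to 0.15). Between the knockdowns, MEG3 was 0.01 with upper-quartile scaling, 0.01 without siQKI library 1 and 0.00 without siRBFOX2 library 2, KCNQ1OT1 was -0.01, -0.03 and -0.11 without siQKI library 2, siQKI library 3 and siRBFOX2 library 3 (range -0.11 to 0.29), and SGCE was -0.00 without siQKI library 1 (range -0.00 to 0.05). The cause of these changes was not tested. Over all named genes and settings, 1884 values kept their call and direction, 106 lost a call and 3 gained one (in siQKI, KCNQ1OT1 without siQKI library 1, and CDKN1C and SGCE with upper-quartile scaling). The depth behind low values, such as H19 and IGF2 in HPAF-II, is unknown.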

Other observations

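The kinases that CDKN1C inhibits, their partners and targets and related inhibitors fell more often than they rose in the PANC-1 knockdowns, as did all genes. Of 22 tested, 3 rose and 10 fell in siQKI (59.1%, against 33.0% of all genes, 14.9% higher and 18.1% lower). In siRBFOX2, 4 rose and 12 fell (72.7%, against 26.5% of all genes, 12.0% higher and 14.5% lower). RBL1, which encodes the pocket protein p107, fell from 7103 ± 331 to 3075 ± 119 normalized counts in siQKI (log2 fold change -1.21, limma adjusted p = 1.01e-09). CDK6 and its partner CCND1 fell in both knockdowns, CDK6 by 0.69 and 1.18 and CCND1 by 0.55 and 1.04. In the other direction, CCND2, a further D-type cyclin, rose from 141 ± 14.4 to 410 ± 115 in siRBFOX2 (2.83-fold, adjusted p = 0.000915), and CCNE1 rose by 0.31 there (adjusted p = 0.00576). The related inhibitors CDKN1A and CDKN2C rose in siQKI by 0.36 and 0.39 (adjusted p = 7.05e-05 and 6.48e-06), and CDKN2D fell by 0.65 and 0.71. Between the lines, the inhibitors CDKN2A and CDKN2B were listed at 0 in PANC-1 and stood at 120 ± 27.8 and 100.2 ± 23.3 rescaled counts in HPAF-II, and 3 of 24 genes were at least 2-fold higher and 2 at least 2-fold lower in HPAF-II (20.8% together, against 52.4% of all genes).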
